A study of Danio rerio with 16 samples.

Results

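The genes described here encode the activin, inhibin and follistatin system of the zebrafish ovary: the inhibin alpha subunit inha, the beta subunits inhbaa, inhbab and inhbb, the follistatins fsta and fstb, and the type II receptors acvr2aa, acvr2ab, acvr2ba and acvr2bb. They were chosen by gene name, and all 10 were found among the 29629 genes listed in the series. A name match found 8 of them, and the gene identifier found the other 2, because acvr2ba is listed as acvr2b (30457) and acvr2bb under a locus number (100331938). With the copies of inha and fsta on alternate scaffolds of the assembly, they fill 12 rows. Ovaries of adult wild-type fish were cut into sections, and the sections were cultured for 6 h at 28 °C with 1 of 4 treatments, with 4 RNA-seq libraries for each. PNX-20 is a form of phoenixin, a peptide proposed to activate the orphan receptor SREB3 (GPR173), and was given at 100 nM. A8535 and PT-91, each given at 5 µM, are sulfonamide benzamides made as agonists of the related receptor SREB1 (GPR27). A8535 carries chlorines on its benzoyl ring, whereas PT-91 carries a methoxy and a trifluoromethyl group there. The negative control held the vehicle DMSO. Sections of 1 fish may have supplied libraries of several groups, and the labels do not tell which, so p-values measure only the spread between these libraries.

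Activins are dimers of beta subunits, and inhibins are dimers of the alpha subunit with a beta subunit. Activin binds a type II receptor, which then recruits a type I receptor and leads to phosphorylation of Smad2 and Smad3. Inhibin competes for the type II receptors, and follistatin binds activin in the extracellular space and keeps it from its receptors. In the fish ovary, follicle cells are the main source of the subunits, and activin is known as a local promoter of oocyte maturation. In GRCz11, as the tables give it, inhbaa lies on chromosome 24 (3049838 to 3061966, plus strand), inhbab on chromosome 2 (21486529 to 21503748, plus) and inhbb on chromosome 9 (36967295 to 36974879, plus). The follistatin fsta lies on chromosome 5 (40504910 to 40510465, minus) and fstb on chromosome 10 (8968206 to 8976823, plus). The receptors lie on chromosome 9 (acvr2aa, 25380790 to 25444359, minus), chromosome 6 (acvr2ab, 1724698 to 1746109, plus), chromosome 24 (acvr2ba, 41164800 to 41220538, minus) and chromosome 2 (acvr2bb, 51818093 to 51856340, plus). Counts cover whole genes, so isoforms were not separated.

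Library totals ran between 10233870 and 15104959 reads. All 10 oocyte markers and all 10 follicle cell markers were detected. The oocyte list summed to between 5534 and 10807 CPM (read counts scaled by library size) over the 16 libraries, led by zp3a.1, h1m and buc. The follicle cell list summed to between 350 and 683 CPM, led by the steroidogenic enzymes cyp11a1 and cyp17a1 and by gsdf. Median levels of these were 286, 104 and 38.0 CPM, against 0.949 for foxl2a, 1.96 for amh and 0.816 for star. The sum thus mostly follows cyp11a1 and cyp17a1, and which cells their reads came from was not tested. Mitochondrial genes held 0.190% to 4.08% of reads. Control replicate 3 stood apart, with the lowest mitochondrial share and a follicle cell score of -1.27, against -0.476 to 0.706 in the other 15 libraries. This score is the mean of the list's log2 CPM after each gene was centred on its mean. Control replicate 3 also had the lowest scores of the lists for smooth muscle (-1.17), stroma (-1.65), red blood cells (-3.17) and pancreas (-1.71). Its endothelium (-1.04) and leukocyte (-0.688) scores were low but not the lowest, and its oocyte score (0.411) was the highest. Its low score was thus not particular to follicle cells. In bulk tissue, fewer cells of a type and less RNA per cell cannot be told apart.

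The type II receptors were measured in every library, with 54 to 783 reads. On the scale of CPM per kilobase of gene length, which allows genes to be compared, acvr2aa had the highest median level of the 8 members listed in all 16 libraries, counted by primary rows, 6.88, with a range of 2.79 to 11.8. It stood above acvr2ba in 16 of 16 libraries, but it was not the highest receptor in every library. In PT-91 replicate 1 acvr2ab was higher (3.19 against 2.79), and in control replicate 1 acvr2bb was higher (8.23 against 7.73). The median levels were 4.20 for acvr2ba, 3.99 for acvr2ab and 2.96 for acvr2bb, and their ranges over libraries overlapped: acvr2ba was above acvr2ab in 9 of 16 libraries and acvr2ab above acvr2bb in 10 of 16. In the summed level of the 4 receptors, acvr2aa held a median of 37.7% per library, with 23.2% for acvr2ba, 21.6% for acvr2ab and 20.5% for acvr2bb. Counted with its primary row alone, inha came next at 2.79 CPM per kilobase, followed by inhbaa at 2.23, which overlapped it. With both inha rows added, inha reached a median of 7.41 (2.91 to 17.6) and moved from the fifth to the first place, level with acvr2aa, which it exceeded in 8 of 16 libraries.

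**Figure D1:**
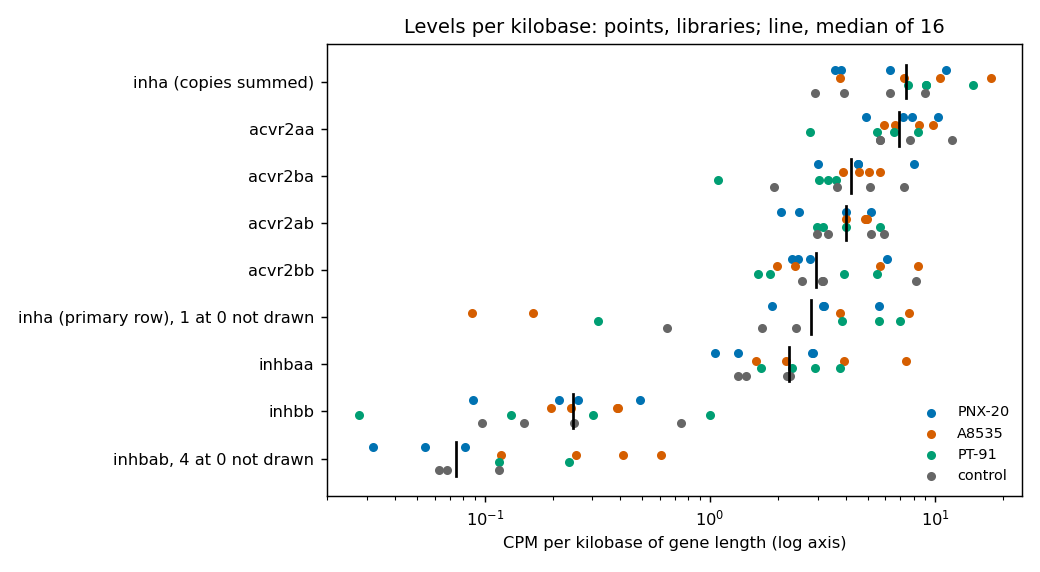
Level of each member in CPM per kilobase of gene length on a log axis, with 1 point per library coloured by group and a line at the median of 16 libraries; libraries at 0 reads are not drawn. The receptors, inhbaa and the summed inha lie mostly between 1 and 12, whereas inhbb has a median of 0.246 and inhbab of 0.0747.

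Among the beta subunits, inhbaa stood apart from the other two, whose ranges overlapped. The lowest library of inhbaa, at 1.05 CPM per kilobase, was above the highest library of inhbb, at 1.00. The median of inhbb was 0.246, from 1 to 28 reads per library. The median of inhbab was 0.0747, and 12 of 16 libraries had any read of it. The level of inhbb was above that of inhbab in 12 of 16 libraries. The follistatins were nearly undetected. The primary row of fsta had 5 reads in PNX-20 replicate 2 and 0 in the other PNX-20 libraries and in all controls, and it was not listed for A8535 and PT-91. Its alternate-scaffold row had 2 reads in PNX-20 replicate 4, 3 reads in A8535 replicate 4 and 0 reads in all controls. The paralogue fstb had 0, 2, 8 and 0 reads in PNX-20 libraries and 0, 0, 8 and 0 reads in A8535 libraries, against 0 reads in all controls, and was not listed for PT-91. Each table lists only genes with at least 2 reads over its 8 libraries. With all controls at 0 reads, a fitted fold change of a follistatin would depend on the prior count, so none is given.

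The reads of inha were divided between 2 rows, and the division differed from library to library. The primary row lies on chromosome 6 of GRCz11 (21068783 to 21091948, minus strand), and its copy lies on an alternate scaffold. Both rows have a length of 1044 bases. Over the 16 libraries, 618 reads were assigned to the primary row and 1030 to the copy. The copy held 0% of 54 reads in A8535 replicate 2 (95% Wilson interval 0% to 6.64%), and it held 99.2% of 120 reads in A8535 replicate 1 (95.4% to 99.9%). These intervals cover counting error only. In 2 of 16 libraries the copy held under 10% of the inha reads, in 5 it held over 90%, and in the other 9 it held a share in between. The copy's share spanned 10.4% to 70.2% in PNX-20 libraries, 0% to 99.2% in A8535 libraries and 8.22% to 97.8% in PT-91 libraries, against 56.9% to 100% in controls. The libraries labelled replicate 2 of PNX-20, A8535 and PT-91 had shares of 10.4%, 0% and 8.22%, whereas control replicate 2 had 56.9%. In the same order, with the control last, replicate 3 had 49.2%, 56.7%, 57.6% and 100%. The shares of other numbers were less alike, with 70.2%, 99.2%, 37.8% and 92.9% for replicate 1 and 16.3%, 97.8%, 97.8% and 61.6% for replicate 4.

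**Figure D2:**
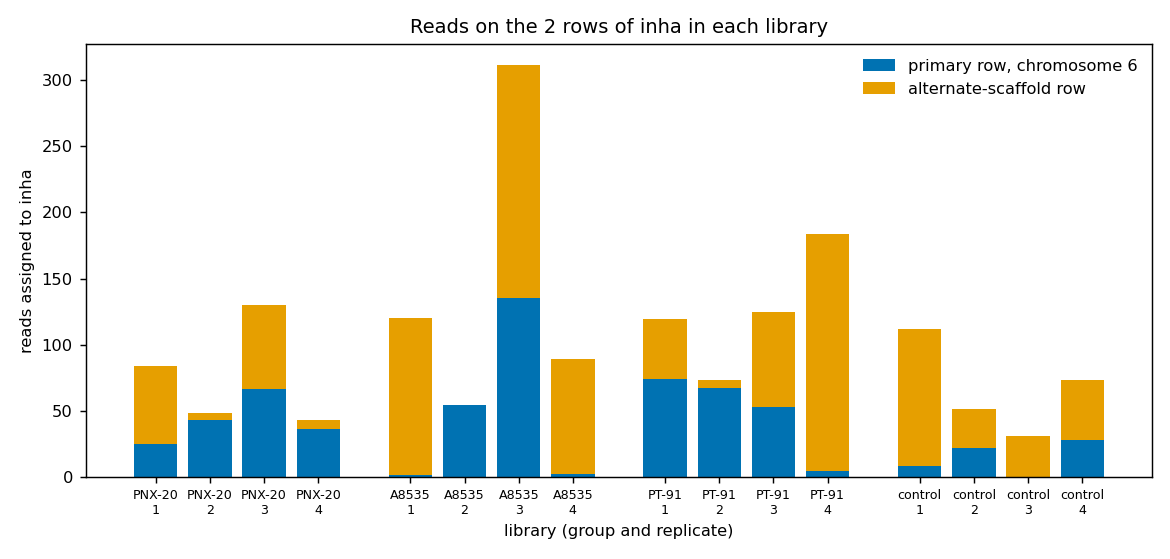
Reads assigned to inha in each of the 16 libraries, stacked as the primary row on chromosome 6 and the alternate-scaffold row. In A8535 replicates 1 and 4 and PT-91 replicate 4 nearly all reads fall on the copy, and in A8535 replicate 2 all 54 fall on the primary row.

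The question of each comparison with the negative control was whether a treatment changed gene expression in cultured ovary. No member passed the test under any treatment. By edgeR's quasi-likelihood test, 0 members had an adjusted p under 0.05 and 0 had an unadjusted p under 0.05 in each of the 3 comparisons with the control and in PT-91 against A8535. Over all genes tested, the share with an unadjusted p under 0.05 against the control was 2.51% under PNX-20, 2.48% under A8535 and 6.81% under PT-91, and 2.26% in PT-91 against A8535, and 0% had an adjusted p under 0.05. The filter on low counts kept inha, inhbaa and the 4 receptors in each comparison with the control, and inhbb also in PT-91 against A8535. The median log2 fold change of the 6 members tested against the control was 0.08 under PNX-20 (-0.02 over all genes tested), 0.13 under A8535 (-0.04 over all genes tested) and -0.19 under PT-91 (0.0033 over all genes tested). The 3 comparisons share their control libraries.

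**Figure D3:**
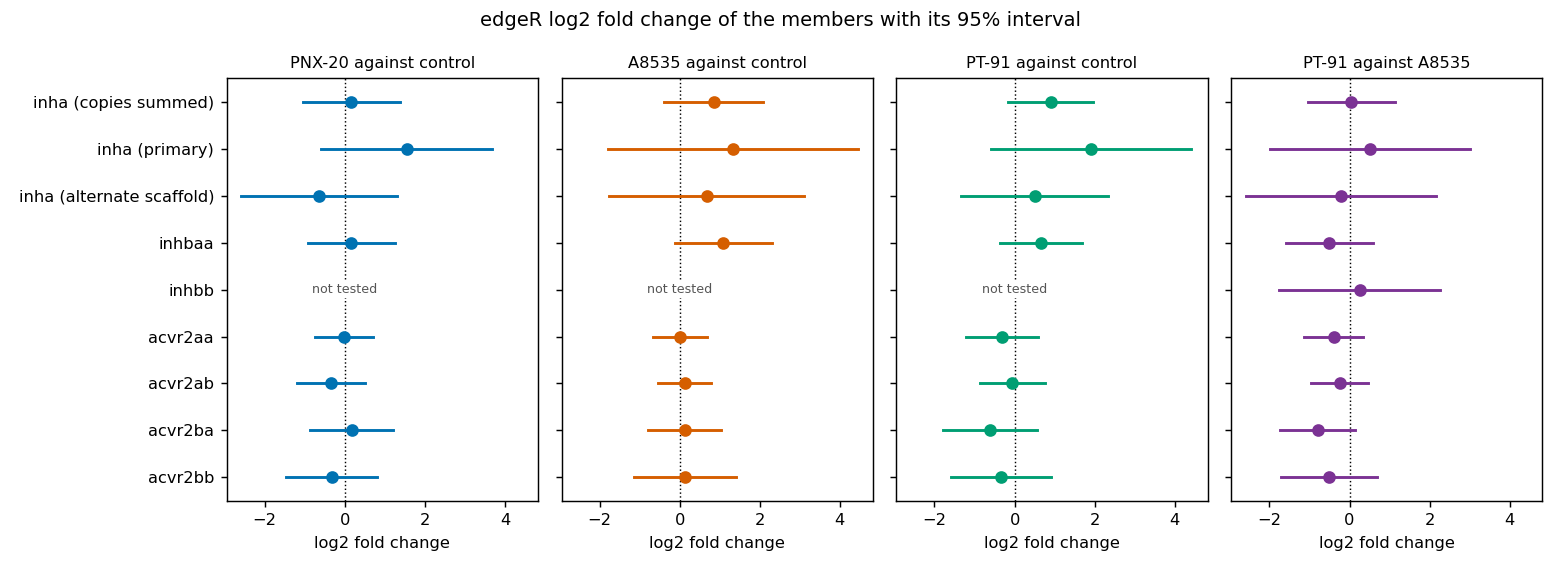
edgeR log2 fold change of each member row (points) with its 95% interval (lines) in 4 comparisons; positive values are higher in the group named first. All intervals span 0, and those of the separate inha rows are the widest, such as -1.79 to 4.46 for the primary row in A8535 against the control.

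The inhibin alpha subunit inha had, with both rows added, 6.57, 3.74, 11.6 and 3.96 CPM in PNX-20 libraries, 11.0, 3.94, 18.4 and 7.57 CPM in A8535 libraries and 9.44, 7.91, 9.47 and 15.3 CPM in PT-91 libraries, against 9.36, 4.10, 3.04 and 6.56 CPM in controls. Of the PT-91 libraries, 3 of 4 were above every control, yet the groups overlapped. The mean was 10.5 ± 3.27 CPM in PT-91 libraries and 5.76 ± 2.82 CPM in controls (SD, n = 4 each), a log2 fold change of 0.90 ± 0.48 (SE, edgeR unadjusted p = 0.089, adjusted p = 0.65). For A8535 the log2 fold change of the sum was 0.85 ± 0.56 (edgeR unadjusted p = 0.16, adjusted p = 1.00), and for PNX-20 it was 0.16 ± 0.54 (edgeR unadjusted p = 0.77, adjusted p = 1.00). In the primary row alone the log2 fold changes were 1.54 under PNX-20, 1.34 under A8535 and 1.90 under PT-91. In the copy alone they were -0.65, 0.67 and 0.51 in the same order. Thus the sign for PNX-20 differed between the rows, and neither row passed the test.

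The beta subunit inhbaa, which pairs with itself to form activin A, had 13.3, 7.37, 25.3 and 5.45 CPM in A8535 libraries, against 4.93, 7.71, 4.51 and 7.46 CPM in controls. Only A8535 replicates 1 and 3 were above every control, so the groups overlapped. The mean was 12.9 ± 8.95 CPM in A8535 libraries and 6.15 ± 1.67 CPM in controls (SD, n = 4 each). The log2 fold change was 1.09 ± 0.54 (SE, 95% interval -0.13 to 2.30, edgeR unadjusted p = 0.074, adjusted p = 1.00). It was 0.51 without A8535 replicate 3 (unadjusted p = 0.33) and 1.34 without A8535 replicate 4 (unadjusted p = 0.032). In A8535 replicate 3 the scores of the lists for stroma (1.85), endothelium (1.39), leukocytes (1.81) and pancreas (2.30) were the highest of the 16 libraries, and their part in the inhbaa level was not tested. Over A8535 against the control, 4 of 4 stromal markers (col1a2, col1a1a, dcn, pdgfra) had positive log2 fold changes with a median of 1.28, and 0 passed the unadjusted threshold. The value of pdgfra was only 0.01 in the primary row counted here, and 1.07 in its alternate-scaffold row (edgeR unadjusted p = 0.99 and 0.17). All 4 smooth muscle markers had positive values too (median 0.96), and 2 of them passed the unadjusted threshold of edgeR, acta2 (1.20, unadjusted p = 0.032) and myh11a (1.38, unadjusted p = 0.013). Of the pancreatic markers gcga passed it upwards (2.12, unadjusted p = 0.036), and of the oocyte markers zar1 passed it downwards (-0.87, unadjusted p = 0.031). Of 8 fits without 1 library, 3 kept the threshold for acta2, 7 for myh11a, 4 for gcga and 4 for zar1. In alternate-scaffold rows, the leukocyte marker coro1a (1.34) and the endothelial marker tie1 (1.64) passed it too (edgeR unadjusted p = 0.042 and 0.0499). Their primary rows were not tested under A8535. Under PT-91 the same rows had -0.42 and 0.82 (edgeR unadjusted p = 0.61 and 0.28). In PT-91 against A8535, coro1a had -1.78 (edgeR unadjusted p = 0.043). These shifts were not all particular to A8535. Under PT-91, acta2 (1.17, edgeR unadjusted p = 0.043) and gcga (2.40, edgeR unadjusted p = 0.010) passed the threshold too. The pancreatic markers did not move together under PT-91, with 0.60 for cpa5 and -1.08 for prss1 (edgeR unadjusted p = 0.61 and 0.14). The PT-91 values of myh11a (0.35, edgeR unadjusted p = 0.54) and zar1 (-0.84, edgeR unadjusted p = 0.053) did not pass the threshold, zar1 only narrowly. In PT-91 against A8535, zar1 had -0.03 (edgeR unadjusted p = 0.94). There myh11a had -1.09 (edgeR unadjusted p = 0.049), and 3 of 8 fits without 1 library kept the threshold. The stromal list summed to 16.5 to 103 CPM in A8535 libraries and to 6.96 to 32.5 CPM in controls, and the smooth muscle list to 37.8 to 118 CPM in A8535 libraries and to 20.8 to 70.3 CPM in controls.

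Under the other treatments inhbaa had 9.70, 9.59, 3.57 and 4.51 CPM in PNX-20 libraries and 5.71, 12.8, 7.88 and 9.90 CPM in PT-91 libraries. The PNX-20 libraries fell on both sides of the controls, with 2 above and 1 below all of them. The log2 fold change was 0.17 ± 0.49 for PNX-20 (SE, 95% interval -0.93 to 1.26, edgeR unadjusted p = 0.74, adjusted p = 1.00). In 3 of 4 PT-91 libraries inhbaa was above every control, with a log2 fold change of 0.66 ± 0.46 (SE, 95% interval -0.37 to 1.68, edgeR unadjusted p = 0.19, adjusted p = 0.76). With both rows added, the level of inha per kilobase exceeded that of inhbaa in all 16 libraries, by 1.27 to 10.6 times, whereas the primary row alone did so in 9 of 16.

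The paralogue inhbab had too few reads for the fit. It had 8, 24, 20 and 4 reads in A8535 libraries (0.731, 1.75, 1.18 and 0.340 CPM), against 4, 0, 2 and 2 reads in controls (0.334, 0, 0.196 and 0.180 CPM). All A8535 libraries were above all controls, the lowest by 0.340 against 0.334 CPM. Of all genes listed for A8535, 1.71% did not overlap with the control in CPM, in either direction, and inhbab was 1 of 10 members to do so. For PNX-20 and PT-91 these shares of all listed genes were 1.59% and 2.33%, and 0 members did so. The difference in means was 0.823 CPM (exact permutation test, two-sided, p = 0.0286, the smallest p that 4 against 4 libraries allow). This test was run for the 7 combinations of inhbab or inhbb with a comparison that the filter left out, and was chosen after the values were seen. Without the filter, edgeR gave a log2 fold change of 2.49 ± 1.19 (SE, unadjusted p = 0.056, adjusted p = 0.96). There were 3, 2, 0 and 1 reads of inhbab in PNX-20 libraries and 0, 0, 9 and 4 reads in PT-91 libraries, and both groups overlapped with the controls (exact permutation test, two-sided, p = 0.54 and p = 0.83).

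The third beta subunit gene, inhbb, had 10, 19, 3 and 7 reads in PNX-20 libraries, 8, 16, 20 and 7 reads in A8535 libraries and 5, 28, 12 and 1 reads in PT-91 libraries, against 9, 28, 3 and 5 reads in controls. All groups overlapped, and the means were 0.794 ± 0.508, 0.919 ± 0.300 and 1.11 ± 1.33 CPM for the treatments in that order and 0.936 ± 0.895 CPM for the controls (SD, n = 4 each). The exact permutation tests against the control gave p = 0.80, 0.97 and 0.77 (two-sided).

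**Figure D4:**
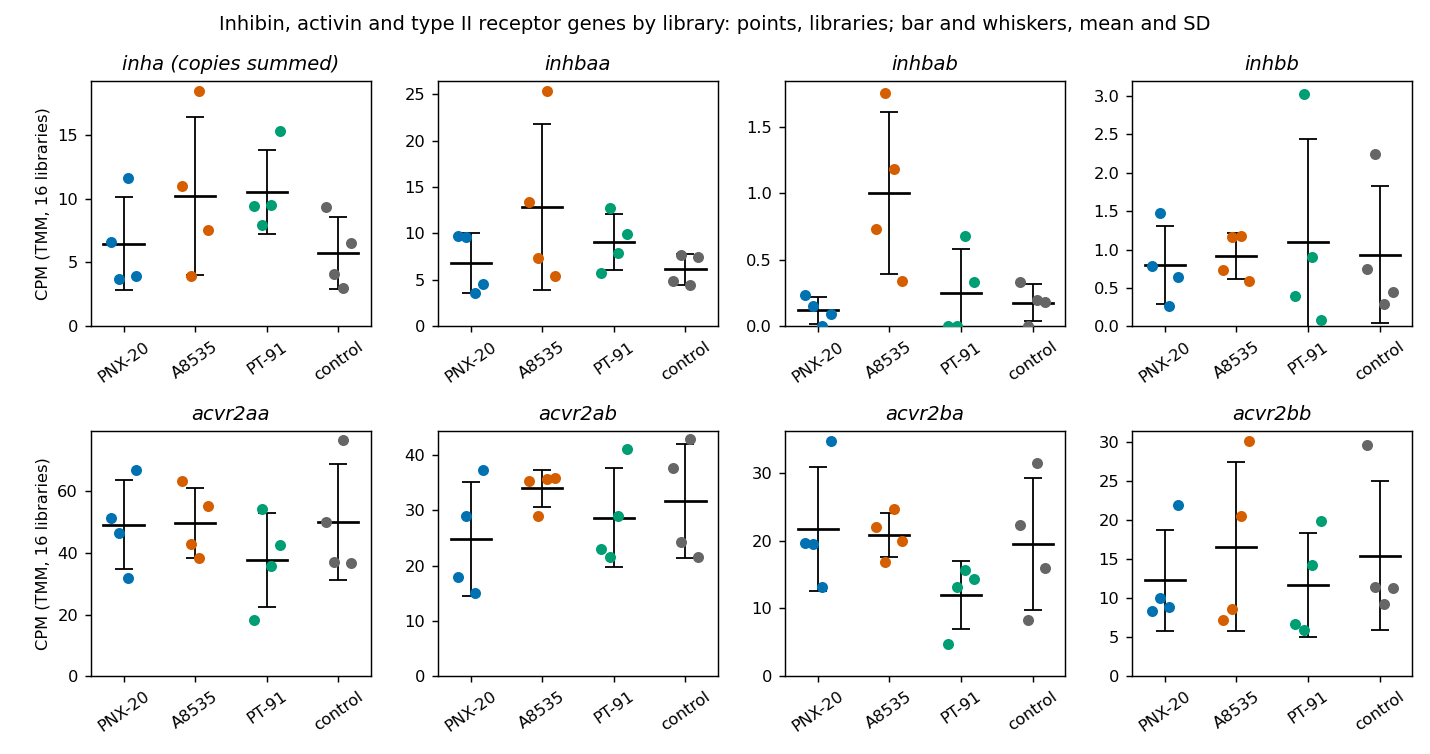
CPM of inha (both rows added), the beta subunits and the type II receptors in each library, with the mean and SD of each group of 4. The inhbab points of A8535 all lie above the controls and the acvr2ba points of PT-91 all lie below those of A8535, whereas every other panel overlaps between these pairs of groups.

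No type II receptor differed from the control beyond the spread between libraries. For acvr2aa, means were 49.2 ± 14.5 CPM in PNX-20 libraries, 49.9 ± 11.4 CPM in A8535 libraries and 37.6 ± 15.2 CPM in PT-91 libraries, against 50.1 ± 18.8 CPM in controls (SD, n = 4 each). The log2 fold changes of acvr2aa were -0.01 (95% interval -0.74 to 0.71) under PNX-20, 0.01 (-0.67 to 0.69) under A8535 and -0.31 (-1.22 to 0.59) under PT-91. For acvr2ab the values were -0.34 (-1.19 to 0.52) under PNX-20, 0.13 (-0.53 to 0.79) under A8535 and -0.06 (-0.87 to 0.75) under PT-91. The smallest edgeR unadjusted p of a receptor against the control was 0.27, for acvr2ba under PT-91. The intervals of acvr2bb were wide, such as -1.15 to 1.41 for A8535, because its libraries spread over 5.85 to 30.1 CPM. Control replicate 1 had 29.6 CPM of acvr2bb, against 9.21 to 11.4 CPM in the other controls. Without that library the log2 fold change of acvr2bb was 0.20 under PNX-20, 0.65 under A8535 and 0.22 under PT-91, whereas it was -0.33, 0.13 and -0.34 with it. Some treated libraries were high too, such as A8535 replicate 4 (30.1 CPM) and PNX-20 replicate 4 (21.8 CPM). Without A8535 replicate 4 the value under A8535 was -0.32.

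The benzamides were given at the same dose for the same time, so they could be compared with each other. The receptor acvr2ba had 4.68, 13.2, 15.7 and 14.4 CPM in PT-91 libraries, against 22.0, 16.8, 24.6 and 19.9 CPM in A8535 libraries. All PT-91 libraries were below all A8535 libraries, as in 1.08% of all shared genes, in either direction. Controls had 22.3, 8.35, 31.5 and 15.9 CPM of acvr2ba and overlapped with both groups. The mean was 12.0 ± 4.98 CPM under PT-91 and 20.9 ± 3.29 CPM under A8535 (SD, n = 4 each). The log2 fold change of PT-91 over A8535 was -0.80 ± 0.44 (SE, 95% interval -1.74 to 0.14, edgeR unadjusted p = 0.092, adjusted p = 0.97), and it was -0.53 without PT-91 replicate 1. The other receptors had negative values too, -0.40 (-1.13 to 0.34) for acvr2aa, -0.24 (-0.95 to 0.47) for acvr2ab and -0.51 (-1.70 to 0.68) for acvr2bb. For inhbaa the value was -0.50 (-1.58 to 0.58), and it was 0.07 without A8535 replicate 3. For inha with both rows added it was 0.04 (-1.05 to 1.14). For inhbb it was 0.26 (-1.75 to 2.27). For inhbab, which the filter left out, 3 of 4 PT-91 libraries were below all A8535 libraries, and the difference of the means, 0.254 CPM under PT-91 and 1.00 CPM under A8535, was -0.747 CPM (exact permutation test, two-sided, p = 0.057). The intervals of the fitted values all span 0, and they do not show that the compounds act alike on these genes.

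Of 32 other genes of the pathway, 24 were tested under PNX-20, 24 under A8535 and 23 under PT-91. By the unadjusted p of edgeR, 0 rose under any treatment, whereas 1 fell under PNX-20, 0 under A8535 and 2 under PT-91, and 0 passed after adjustment. These counts stand beside 2.51%, 2.48% and 6.81% of all genes tested, in either direction. The median log2 fold changes of these lists were -0.06 under PNX-20 (-0.02 over all genes tested), -0.02 under A8535 (-0.04 over all genes tested) and -0.16 under PT-91 (0.0033 over all genes tested). The gene acvr1c, a type I receptor that binds activin and Nodal ligands in mammals, had 4.54, 2.81, 1.87 and 3.50 CPM in PNX-20 libraries, 7.22, 3.21, 0.177 and 4.85 CPM in A8535 libraries and 2.94, 1.30, 0.303 and 3.66 CPM in PT-91 libraries, against 6.02, 3.29, 11.6 and 8.45 CPM in controls. The PNX-20 and PT-91 groups each overlapped with the controls through control replicate 2. The log2 fold change was -1.18 ± 0.53 for PNX-20 (SE, edgeR unadjusted p = 0.049, adjusted p = 1.00) and -1.74 ± 0.75 for PT-91 (unadjusted p = 0.043, adjusted p = 0.71). It was -0.92 ± 0.84 for A8535 (unadjusted p = 0.30). The unadjusted threshold was kept in 2 of 8 fits that left out 1 library for PNX-20 and in 3 of 8 for PT-91, and the largest p was 0.15 and 0.10. Control replicate 3, which gave both of these largest values when left out, had the highest acvr1c level. With a replicate block neither call held (edgeR unadjusted p = 0.14 for PNX-20 and unadjusted p = 0.070 for PT-91), and the PNX-20 call was also lost in the fit of all 16 libraries (unadjusted p = 0.17), in limma-voom (unadjusted p = 0.053) and without the filter on low counts (unadjusted p = 0.058).

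The gene foxh1, a DNA-binding partner of the Smads, had 36.9, 51.9, 96.5 and 75.1 CPM in PT-91 libraries, against 143, 120, 116 and 90.2 CPM in controls. Only PT-91 replicate 3 was above the lowest control. The A8535 libraries had 67.6, 65.1, 41.5 and 124 CPM, and only replicate 4 was above that control. The log2 fold change of foxh1 was -0.63 under A8535 (edgeR unadjusted p = 0.083) and -0.03 under PNX-20. In PT-91 against A8535 it was -0.19 (edgeR unadjusted p = 0.58). Under PT-91 the log2 fold change of foxh1 was -0.77 ± 0.33 (SE, edgeR unadjusted p = 0.040, adjusted p = 0.71), and 4 of 8 fits without 1 library kept the threshold. It was lost with the replicate block (edgeR unadjusted p = 0.077), in limma-voom (unadjusted p = 0.075) and with library size scaling (unadjusted p = 0.057). Beside it, 8 of 10 oocyte markers had negative values under PT-91, with a median log2 fold change of -0.27. Of these, zp2.1, which encodes an egg coat protein, fell by 1.03 on the log2 scale (edgeR unadjusted p = 0.0081). The 2 positive ones were h1m (0.64, edgeR unadjusted p = 0.18) and figla (0.57, edgeR unadjusted p = 0.69). This was not particular to PT-91, as under A8535 only 1 of 10 oocyte markers was positive, with a median of -0.32. The oocyte list summed to 6475 to 10807 CPM in PT-91 libraries and to 8439 to 10154 CPM in controls, and its part in the foxh1 level was not tested.

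The other genes of the pathway had a wide range of levels, taken here from their primary rows, so reads on alternate-scaffold copies (as furina has) were not added. Among the type I receptors, acvr1ba and acvr1bb were the most abundant, with medians of 25.1 and 6.12 CPM per kilobase. Of the Smads, smad2 had a median of 37.3 and smad4a of 26.8 CPM per kilobase. Among the modulators, the Nodal co-receptor gene tdgf1 (34.1) and foxh1 (21.4) led, and the follistatin-like gene fstl3, whose product binds activin in mammals, had a median of 9.60 CPM per kilobase. Of the other ligands, the oocyte genes gdf3 (286) and bmp15 (129) were the highest. The proprotein convertase genes furina and furinb, whose products cleave such ligands from their precursors, had medians of 8.45 and 3.24. In PT-91 against A8535, 5 of 5 type I receptors had negative log2 fold changes with a median of -0.87, beside -0.04 over all genes tested, and 0 of them passed the unadjusted threshold. The most abundant, acvr1ba, had only -0.13 ± 0.25 (SE), and acvr1bb had -0.81 ± 0.51. The median was that of tgfbr1a (SE 0.77), a receptor with a median level of 0.543 CPM per kilobase. The values of acvr1c (-0.89 ± 0.83) and tgfbr1b (-1.34 ± 1.24) had wide errors too.

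The members were also set against the cell type lists. Over the 16 libraries, which may not be independent, the log2 CPM of inha with both rows added correlated with the follicle cell score (Pearson r = 0.68, permutation p = 0.0023, adjusted p = 0.032; Spearman rho = 0.61, permutation p = 0.013, adjusted p = 0.19; 14 relations were computed). Without the 2 libraries farthest from the median score, control replicate 3 and PT-91 replicate 4, r was 0.49 and rho 0.44, so the relation rests in part on those libraries. Within groups, after subtraction of the group means, r was 0.53. For inhbaa and the follicle cell score r was 0.49 (permutation p = 0.060, adjusted p = 0.28) and rho was 0.56 (adjusted p = 0.19). The other 12 relations had adjusted p-values of 0.205 or more by either measure. Among them, inha and the oocyte score had r = -0.51 (permutation p = 0.044, adjusted p = 0.28) and rho = -0.51 (permutation p = 0.044). Within groups that r was -0.23. For the receptors, r with the follicle cell score spanned -0.42 for acvr2ba to 0.07 for acvr2bb. The follicle cell list, whose part in the inha comparisons was not tested, had a median log2 fold change of 0.07 under PNX-20, 0.66 under A8535 and 0.66 under PT-91, with hsd3b1 under A8535 the only marker past the unadjusted threshold. Of the markers tested, 5 of 7 were positive under PNX-20, 6 of 8 under A8535 and 6 of 8 under PT-91. The most abundant ones went the other way in their primary rows. These were cyp11a1 (-0.18 under A8535 and -0.11 under PT-91) and cyp17a1 (-0.61 and -0.60). The alternate-scaffold row of cyp11a1 was positive (0.25 and 0.28). The whole follicle cell list summed to 418 to 602 CPM in PNX-20 libraries and to 404 to 605 CPM in A8535 libraries. Its sums were 393 to 683 CPM in PT-91 libraries and 350 to 643 CPM in controls. These sums mostly follow cyp11a1 and cyp17a1, so they say little about the other markers.

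**Figure D5:**
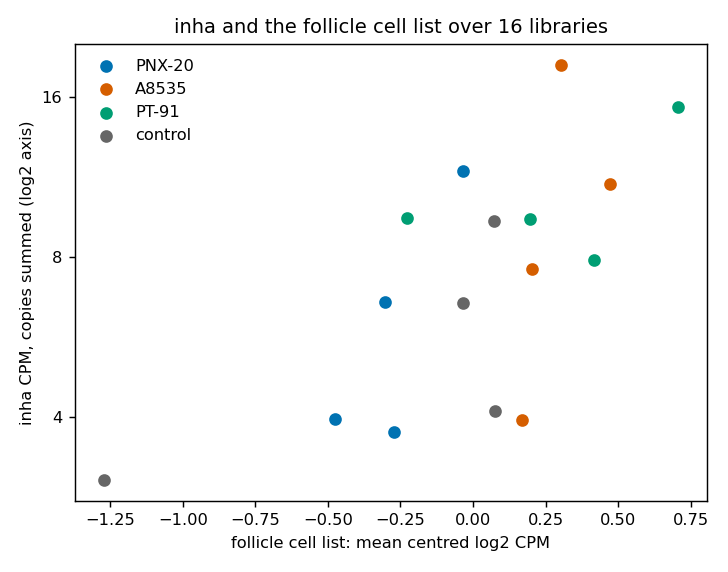
Level of inha in CPM, both rows added, on a log2 axis against the follicle cell score, with 1 point per library coloured by group. Control replicate 3 lies at the lower left with a score of -1.27 and 3.04 CPM, and PT-91 replicate 4 at the right with 0.706 and 15.3 CPM.

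Among the members, levels of the receptors acvr2aa and acvr2ba were the most alike over the 16 libraries (Pearson r = 0.84, Spearman rho = 0.74), whereas inha and inhbaa had r = 0.42 and rho = 0.38. These are descriptions over libraries that differ in depth and tissue make-up, and the part of those differences in the correlations was not tested. Of 12168 genes with a symbol, the 3 with the pattern most like that of acvr2aa were dot1l, a histone methyltransferase gene, pan2 and dmgdh (r = 0.94, 0.92 and 0.92). For acvr2ba they were ddx46, cenpe and eif3ba (0.92, 0.92 and 0.91), and for acvr2ab mnta, als2b and pnpla6 (0.95, 0.94 and 0.94). For acvr2bb they were sgsm1a, slc4a7 and cnnm2a (0.90, 0.89 and 0.89).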

How the data were processed

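RNA was sequenced from 16 cultures of zebrafish ovary, 4 each for PNX-20, A8535, PT-91 and the DMSO control. The raw read counts per gene and the gene lengths were deposited by the authors, whose directional poly(A) reads were trimmed in fastp, mapped in HISAT2 2.0.5 on GRCz11 and assigned to genes by featureCounts 1.5.0-p3. The deposited FPKM, normalised counts, fold changes and p-values of the authors' own comparisons were not used here. Control counts were the same in all 3 tables. Copies on alternate scaffolds have rows of their own, so reads can be divided between them. The rows of a gene can differ in length, and their sequences were not compared.

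Counts were tested with edgeR 4.0.16 (R 4.3.3): filterByExpr, TMM scaling and the robust quasi-likelihood test, with Benjamini-Hochberg adjustment over all genes tested. Each treatment was compared with the control on the 8 libraries of its table, which listed 28089 (PNX-20), 28228 (A8535) or 28009 (PT-91) genes. PT-91 was compared with A8535 in a fit of all 16 libraries on 26910 shared genes. The SE is the log2 fold change over the square root of F. CPM values used TMM over the 16 libraries, and log2 CPM a prior count of 2. Correlations used 100000 permutations (Python 3.11.15). Depth was 10233870 to 15104959 reads, and 3 reads in a library correspond to 0.199 to 0.293 CPM before TMM scaling, which limits inhbab, inhbb and the follistatins. The scripts were tested on simulated data.

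Alternatives were other scalings, filters and tests (limma 3.58.1, DESeq2 1.42.0), copies summed, a replicate block and leaving out each library. The members, the gene lists and the tests were chosen with earlier results of these data known. Genes named beside the members are pathway-list genes at an unadjusted p under 0.05, the 2 most abundant of each list, the leading markers, any gene singled out after its values were seen (fstl3 and the markers given beside inhbaa), and for each of the 4 most abundant members by primary rows, the type II receptors, the 3 genes with the highest Pearson r. List counts and pathway levels use primary rows. The endothelial, leukocyte, pancreatic, smooth muscle and red blood cell lists served to describe libraries. Their markers were also tested in the same comparisons, and those named beside inhbaa were picked after their values were seen.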

Additional observations from a re-analysis of the deposited data

Results flagged for a closer look

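Among the 45 groups of 4 libraries with any reads, 7 held a library whose gap to the others was above 0.829 of the group's range. Chance alone flags about 1 group in 20, and libraries of a gene at 0 reads are flagged by any read. This was so for 4 of the 7: the primary row of fsta in PNX-20 replicate 2 (0.390 CPM, 5 reads), its copy in PNX-20 replicate 4 (0.184 CPM, 2 reads) and in A8535 replicate 4 (0.255 CPM, 3 reads), and fstb in A8535 replicate 3 (0.472 CPM, 8 reads). The receptor acvr2ab had 29.0 CPM in A8535 replicate 2, with 35.4 CPM in the next library of that group. The receptor acvr2bb had 21.8 CPM in PNX-20 replicate 4, with 9.98 CPM in the next highest, and 29.6 CPM in control replicate 1, with 11.4 CPM in the next highest.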

How the results depend on the processing

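Of 518 alternative values for the 29 log2 fold changes of the members, 481 kept the sign and the side of an unadjusted p of 0.05, 3 passed that threshold and 34 changed sign. The number of members at an unadjusted p under 0.05 was 0 in each comparison, and under alternatives it became 1 for A8535 in DESeq2 (inhbaa, 1.13, unadjusted p = 0.042, adjusted p = 1.00) and 1 for PNX-20 in edgeR without the filter on low counts (fstb, unadjusted p = 0.0498, adjusted p = 0.93, on a fold change that is no bound because all controls were at 0 reads). Leaving out 1 library gave 0 to 1 members for A8535 (inhbaa at 1.30 without A8535 replicate 2, edgeR unadjusted p = 0.046, adjusted p = 1.00, and at 1.34 without A8535 replicate 4, edgeR unadjusted p = 0.032, adjusted p = 0.94) and 0 for the others. No alternative gave a member an adjusted p under 0.05. Signs changed in limma-voom for acvr2aa under PNX-20 (0.028), for acvr2bb (-0.23) and the primary row of inha (-1.03) under A8535, for acvr2ab under PT-91 (0.087) and for inhbb in PT-91 against A8535 (-0.51), and with upper quartile scaling for acvr2aa under PNX-20 (0.00036).

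Leaving out 1 library changed signs in these ranges: for PNX-20, acvr2aa -0.19 to 0.26, acvr2ba -0.14 to 0.49, acvr2bb -0.75 to 0.20 and inhbaa -0.053 to 0.38; for A8535, acvr2aa -0.11 to 0.28, acvr2ba -0.13 to 0.44 and acvr2bb -0.32 to 0.65; for PT-91, acvr2ab -0.30 to 0.067, acvr2bb -0.74 to 0.22 and the inha copy -0.45 to 1.07; for PT-91 against A8535, the inha copy -1.21 to 0.16, inhbaa -0.76 to 0.069 and inhbb -0.97 to 0.62. Same-numbered libraries of different groups correlated at -0.29 to 0.58, with 11 of 24 pairs over 0.1. Differently numbered ones correlated at -0.37 to 0.62, with 16 of 72 pairs over 0.1. The highest of the differently numbered pairs were control replicate 1 with A8535 replicate 4 (0.62) and with PT-91 replicate 4 (0.59). Between A8535 and PT-91, same-numbered pairs reached 0.58 (replicate 4) and 0.46 (replicate 3), but -0.035 for replicate 1. Replicate 3 of PNX-20 had 0.44 with A8535 and 0.39 with PT-91. Same-numbered pairs with a control reached no more than 0.24. The main fits did not use the numbers as a pairing, and whether they mark a shared fish was not tested. With a replicate block, 0 members passed the unadjusted threshold, and signs changed for acvr2aa under PNX-20 (0.016), the primary row of inha under A8535 (-0.018), and the inha copy (0.081) and inhbb (-0.34) in PT-91 against A8535. Adding the rows of inha moved its median level to 7.41 CPM per kilobase, against 2.79 in the primary row; that choice adds the reads of the copy.

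The number of all genes at an unadjusted p under 0.05, against 430 for PNX-20, 431 for A8535, 1177 for PT-91 and 435 for PT-91 against A8535, became 962, 844, 1836 and 896 without the filter, 652, 707, 1598 and 697 in DESeq2, 646, 414, 652 and 674 in limma-voom, and 271, 223, 769 and 436 with the block. Leaving out 1 library moved it to 681 (control replicate 2) and 1095 (PNX-20 replicate 4) for PNX-20, to 205 (A8535 replicate 3) and 800 (A8535 replicate 4) for A8535, to 503 (control replicate 3), 607, 602 and 2098 (PT-91 replicates 1, 2 and 4) for PT-91, and to 1527 (A8535 replicate 2), 276, 743 and 1323 (PT-91 replicates 1, 3 and 4) for PT-91 against A8535, so the background shares depend on single libraries. The cause of these changes was not tested. DESeq2 gave 19, 3, 34 and 2 genes an adjusted p under 0.05.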
